A study of Mus musculus with 35 samples.

Results

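The atypical chemokine receptor family with Gpr182 comprised 5 genes, Ackr1, Ackr2, Ackr3, Ackr4 and Gpr182, out of 55487 genes in each table, and was taken by gene symbol. The genes were chosen by the measured falls of Gpr182 and Ackr4 after knockdown of the micropeptide gene IAMP (4930523C07Rik) in cultured mouse cardiac fibroblasts (CFs), together with the rest of the family. Averaged over both siRNAs, Gpr182 had the 3rd and Ackr4 the 7th largest fall in untreated CFs, among 13066 genes that averaged 1 CPM (counts scaled to library size) or more, and the 14th and 16th among 13098 genes under IL-17. Values against Scrambled in those 2 tables are therefore given as a description, without p values. In the TGF-β table the ranks were 572 for Gpr182 and 74 for Ackr4 of 13476 genes, and tests are given there.

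Gpr182 and Ackr4 stood far below Scrambled after IAMP knockdown in untreated and IL-17-treated CFs, the falls by which the genes were chosen. In untreated CFs both stood 7.22- to 16.5-fold lower with each of 2 IAMP siRNAs than with Scrambled siRNA. In the TGF-β table their Scrambled level was itself 5.84-fold (Gpr182) and 3.61-fold (Ackr4) lower than in untreated Scrambled CFs. Ackr3 differed between the siRNAs: it was lower than Scrambled with siR-1 and higher with siR-2 in untreated and IL-17-treated CFs, and higher with both in TGF-β-treated CFs. The differences with siR-1 in untreated and IL-17-treated CFs, and with siR-2 in TGF-β-treated CFs, were under the fold thresholds. Ackr1 and Ackr2 were at or near the detection floor in most CF libraries. In whole hearts, none of the 4 members tested passed between IAMP-KO and heterozygous mice, where 0% of all 16675 genes did.

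Atypical chemokine receptors bind chemokines with high affinity but do not couple to G proteins in the usual way. Most take their ligand into the cell for degradation or carry it across a cell layer, and so shape the chemokine gradients that leukocytes follow. ACKR1 binds inflammatory CC and CXC chemokines on venular endothelium and red cells, ACKR2 takes up inflammatory CC chemokines, ACKR3 (formerly CXCR7) binds CXCL12 and CXCL11 and recruits β-arrestin, and ACKR4 takes up CCL19, CCL21 and CCL25. GPR182, once listed as an adrenomedullin receptor, is an endothelial receptor with broad chemokine binding and is close to ACKR3 in sequence.

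The RNA-Seq set held 35 libraries. The CFs were primary cells of adult mice, kept after enzymatic digestion of the heart as the adherent fraction and grown in serum-containing medium. They were transfected with a scrambled siRNA (Scrambled) or with IAMP-siR-1 (siR-1) or IAMP-siR-2 (siR-2), 3 libraries each, and were untreated, given IL-17, or given TGF-β, which makes 9 groups and 27 libraries. The labels give 24 h of siRNA followed by 24 h of IL-17. A TGF-β dose stated for another measurement on such cells was not tied to these libraries and is not used here. The hearts came from 8-week-old C57BL/6 mice, 4 heterozygous for the IAMP allele (Het) and 4 IAMP-KO. The KO allele is a germline CRISPR-Cas9 frameshift in all cells, so the transcript is still made, and the control group is itself heterozygous for it. Whether the 3 libraries of a CF group came from separate cultures is not stated in the sources used here, so p values measure only the spread between these libraries, which may be technical.

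CF libraries held 104139670 to 119232309 estimated counts and hearts 23497027 to 23857313 counts. Among genes seen in only 1 library of a CF table, the most frequent value was 6 estimated counts, which was taken as the worth of 1 read pair. The floor was therefore set at 3 read pairs, 18 estimated counts, per CF library, and at 3 counts per heart. The knocked-down gene 4930523C07Rik ranged over 22.0 to 25.7 CPM in the untreated Scrambled group, 2.52 to 3.51 in the siR-1 group and 1.77 to 1.89 in the siR-2 group, and both siRNAs were below every Scrambled library in the IL-17 and TGF-β tables too. Its transcript averaged 17.03 ± 1.25 CPM (SD, n = 4) in hearts of Het mice and 16.05 ± 0.976 CPM in those of KO mice, which checks no label because the frameshift leaves the transcript. The columns of the untreated and IL-17 tables name the siRNAs by codes that only the TGF-β labels tie to siR-1 and siR-2. Each statement below that compares an siRNA across tables rests on the codes meaning the same in all 3.

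In the GRCm38 annotation (GENCODE vM21) Gpr182 lies at chr10:127747276-127751732 on the minus strand, with 3954 exonic bases and a coding sequence of 1194 bases for 398 codons with the stop left out. Ackr4 lies at chr9:104084157-104126933 (minus), inside the span of Acad11, a mitochondrial fatty acid oxidation gene on the other strand, and 479 of its 5380 exonic bases, 8.90%, overlap Acad11 exons. Ackr3 lies at chr1:90203980-90216751 (plus), with 3348 exonic bases. Ackr1 lies at chr1:173331886-173333750 (minus) and shares 361 of its 1405 exonic bases, 25.7%, with Cadm3, a cell adhesion gene on the same strand. Ackr2 lies at chr9:121898355-121911074 (plus), with 3127 exonic bases. Gpr182 shares 74 exonic bases, 1.87%, with the end of the zinc finger gene Zbtb39 on the other strand. The strand setting of the counting is not given in the sources used here, so reads in these overlaps cannot be assigned with certainty.

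RefSeq (GRCm38.p6) supplied the 300 bases around the start, 250 before it and 50 from it on, for 4 of the 5 genes, all but Gpr182. The 2 shown are those of the members that, among these 4, were above the floor in every CF library, Ackr3 (chr1:90203730-90204029, plus strand) and Ackr4 (chr9:104126594-104126893, minus strand), printed 5′ to 3′ on the gene's strand. Capitals mark matches, on either strand, to a HIF core (ACGTG or GCGTG), AP-1 (TGANTCA), C/EBP (TTGCNNAA), a TATA box (TATAAA) or the SMAD element (CAGAC).
Ackr3: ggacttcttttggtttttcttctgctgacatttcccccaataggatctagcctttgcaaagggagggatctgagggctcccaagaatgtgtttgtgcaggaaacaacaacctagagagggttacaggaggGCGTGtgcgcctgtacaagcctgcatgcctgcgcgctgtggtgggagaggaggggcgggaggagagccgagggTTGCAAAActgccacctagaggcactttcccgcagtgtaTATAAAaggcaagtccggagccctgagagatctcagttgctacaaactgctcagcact
Ackr4: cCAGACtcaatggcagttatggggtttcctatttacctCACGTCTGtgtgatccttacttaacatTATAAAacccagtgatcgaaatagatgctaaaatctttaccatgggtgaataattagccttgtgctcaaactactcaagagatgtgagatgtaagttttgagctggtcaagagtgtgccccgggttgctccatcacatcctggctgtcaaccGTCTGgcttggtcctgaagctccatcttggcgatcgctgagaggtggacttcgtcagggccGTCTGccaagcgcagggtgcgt
The Ackr3 promoter held GCGTG at position -120 relative to the start, TTGCAAAA at -47 and TATAAA at -8, and neither TGANTCA nor CAGAC. The Ackr4 promoter held CACGT, the HIF core read on the other strand, at -212, TATAAA at -185, and 4 matches to CAGAC, at -249, -209, -33 and 29, of which that at -209 overlaps the HIF core match. Of all 32851 promoters of this length in the table, 43.8% held a HIF core, 49.6% CAGAC, 13.6% TATAAA, 10.8% TTGCNNAA and 7.81% TGANTCA. The matches describe letters only.

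**Figure D1:**
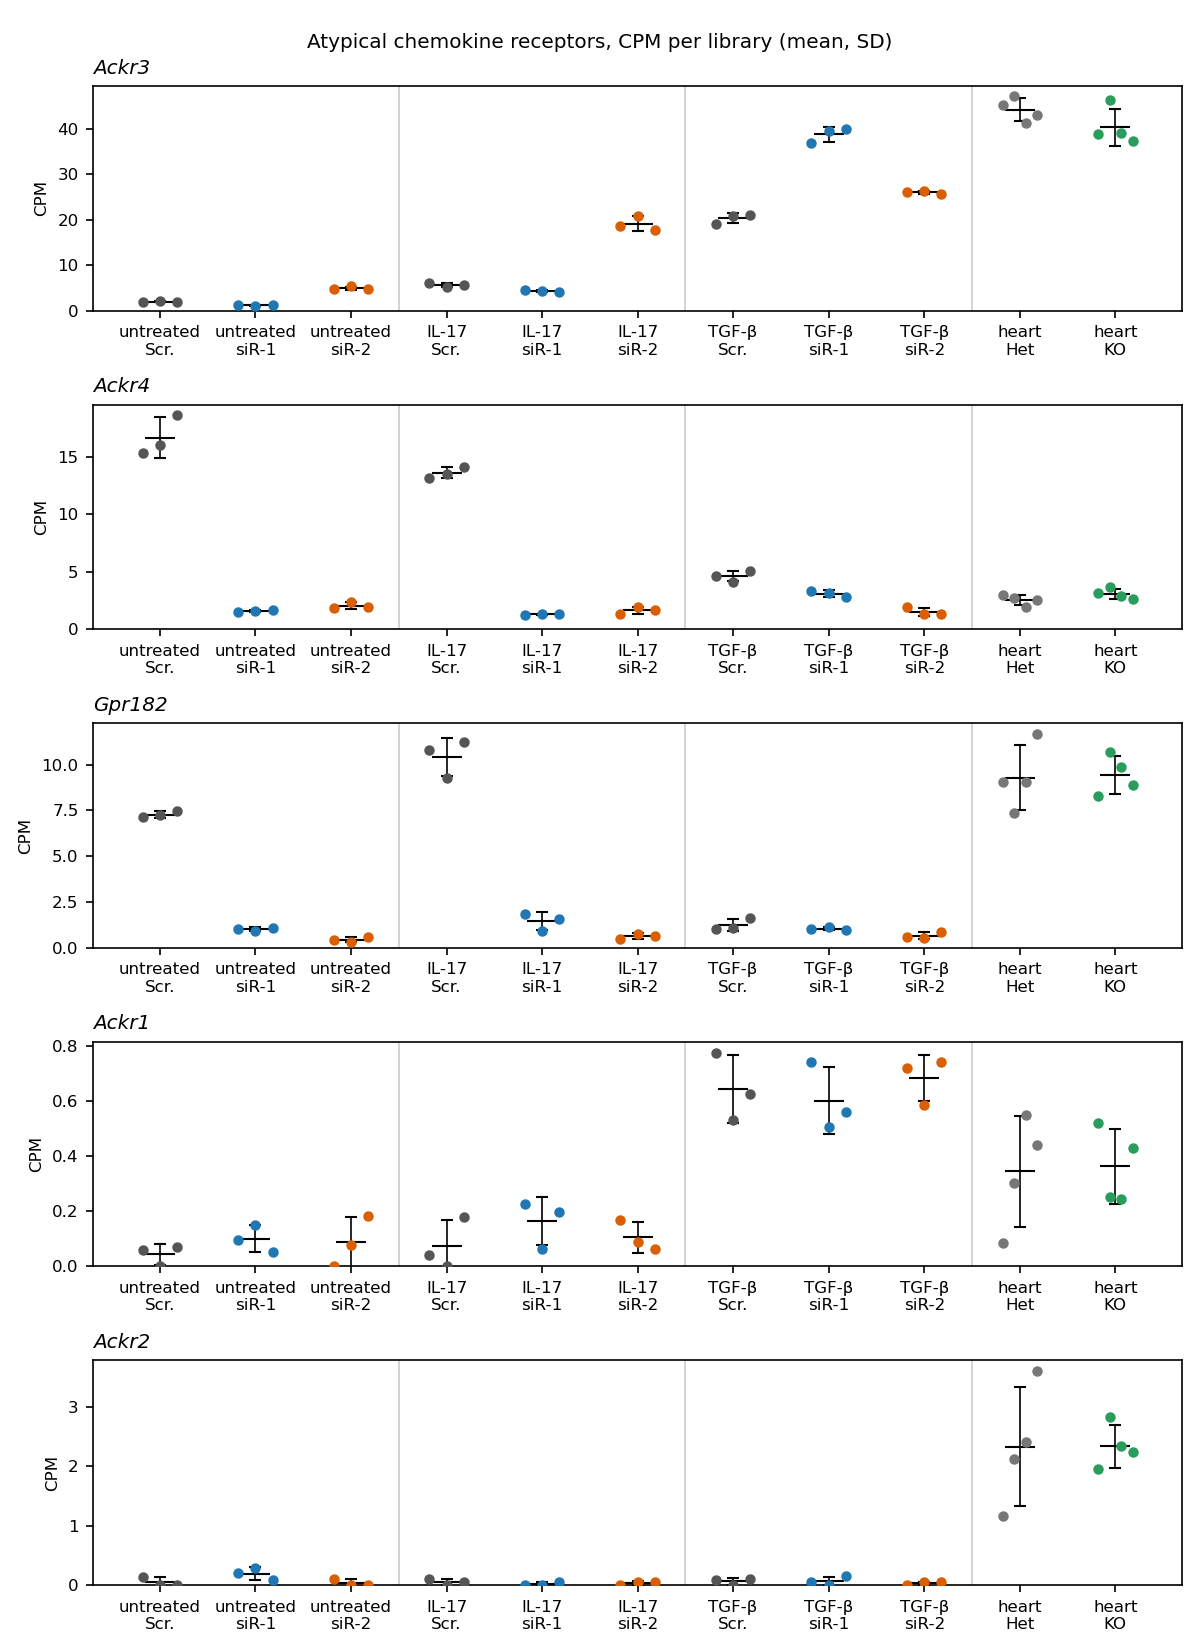
CPM of each member in every library (points), with the group mean (horizontal bar) and SD (whiskers), for 9 CF groups of n = 3 and 2 heart groups of n = 4; each vertical axis starts at 0 and has its own scale. Gpr182 and Ackr4 are high only in the Scrambled libraries of the untreated and IL-17 tables among CFs, Ackr3 is highest among CFs in the TGF-β table, and Ackr2 is above 1 CPM only in hearts.

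Gpr182 was high in untreated Scrambled CFs and low with either siRNA. It stood at 7.14, 7.23 and 7.46 CPM in the Scrambled libraries, at 1.04, 0.900 and 1.09 for siR-1, and at 0.449, 0.291 and 0.592 for siR-2. Every knockdown library lay below every Scrambled library, and every siR-2 library below every siR-1 library. On the log2 scale siR-1 stood at -2.85 ± 0.19 (SE) and siR-2 at -4.05 ± 0.21 relative to Scrambled, that is 7.22- and 16.5-fold lower. Under IL-17 the order of the groups was the same, with Scrambled libraries at 10.8, 9.26 and 11.2 CPM, siR-1 at 1.86, 0.911 and 1.59, and siR-2 at 0.465, 0.780 and 0.667. Here siR-1 gave a log2 fold change of -2.85 ± 0.22, siR-2 one of -4.05 ± 0.24.

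Ackr4, the receptor that clears the lymphoid chemokines, was 10.5-fold (siR-1) and 8.30-fold (siR-2) lower than Scrambled in untreated CFs. The Scrambled libraries held 15.3, 15.97 and 18.6 CPM, the siR-1 libraries 1.501, 1.57 and 1.71, and the siR-2 libraries 1.81, 2.36 and 1.92, so that the groups did not overlap. In log2 units siR-1 differed from Scrambled by -3.39 ± 0.12, siR-2 by -3.05 ± 0.12. With IL-17 the Scrambled libraries held 13.2, 13.5 and 14.1 CPM, siR-1 1.27, 1.35 and 1.30, and siR-2 1.32, 1.96 and 1.67. The differences were again -3.39 ± 0.13 (siR-1) and -3.06 ± 0.13 (siR-2). Acad11, whose exons overlap those of Ackr4, did not share this pattern: it stood at 26.4 ± 0.159 CPM in untreated Scrambled CFs, 23.5 ± 0.519 with siR-1 and 37.3 ± 1.68 with siR-2 (SD, n = 3). Zbtb39, which overlaps Gpr182, stood at 14.7 ± 1.97, 15.0 ± 1.13 and 12.5 ± 0.644 CPM.

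Ackr3 lay below Scrambled with siR-1 and above it with siR-2 outside the TGF-β table. In untreated CFs it stood at 1.93, 2.102 and 1.93 CPM with Scrambled, 1.24, 1.08 and 1.28 for siR-1, and 4.67, 5.34 and 4.86 for siR-2. The siR-1 libraries were the lowest and the siR-2 libraries the highest, with no overlap. Relative to Scrambled, siR-1 gave -0.73 ± 0.14 in log2 units, under the threshold of 1 used there, and siR-2 gave 1.30 ± 0.14. Under IL-17 it stood at 6.13, 5.18 and 5.74 CPM with Scrambled, 4.45, 4.37 and 4.10 for siR-1, and 18.8, 20.9 and 17.8 for siR-2. In that table siR-1 gave -0.41 ± 0.09, under the log2 threshold of 0.59 used there, while siR-2 gave 1.73 ± 0.09.

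The difference between the siRNAs was tested directly with edgeR's quasi-likelihood test (Benjamini-Hochberg over all genes), a contrast the choice of genes did not use, although its libraries also enter those that did. The levels of Gpr182 and Ackr4 in these libraries entered their choice, so their values here are a description without p values. Ackr3 was 4.09-fold higher with siR-2 than with siR-1 in untreated CFs (log2 fold change 2.03 ± 0.14, adjusted p = 4.84e-09) and 4.42-fold higher under IL-17 (2.14 ± 0.09, adjusted p = 2.87e-12). Gpr182 was lower with siR-2 than with siR-1 in both tables, with a log2 fold change of -1.20 ± 0.21 in untreated CFs and -1.20 ± 0.24 under IL-17. Without siR-2 replicate 2 the untreated value was -0.96, under the threshold of 1. Ackr4 was 0.34 ± 0.12 higher on the log2 scale with siR-2 in untreated CFs and 0.32 ± 0.13 under IL-17, in neither case past the fold threshold. The knocked-down gene was itself lower with siR-2 than with siR-1, by -0.72 ± 0.12 in untreated CFs and -0.58 ± 0.11 under IL-17. In untreated CFs 2 of the 5 members thus passed, 1 in each direction, where 6.65% of all 19669 genes tested did. Under IL-17, 2 of 4 tested members passed, against 15.7% of 19906 genes. Gpr182 was among those that passed in both tables, so nothing is read from these counts.

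Against Scrambled, 2 members were past the threshold with siR-1 in untreated CFs (4.76% of all genes tested) and 3 with siR-2 (10.7%). Under IL-17 it was 2 for siR-1 (13.5% of all genes) and 3 for siR-2 (21.7%). As these contrasts guided the choice of the genes, nothing is read from those counts.

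**Figure D2:**
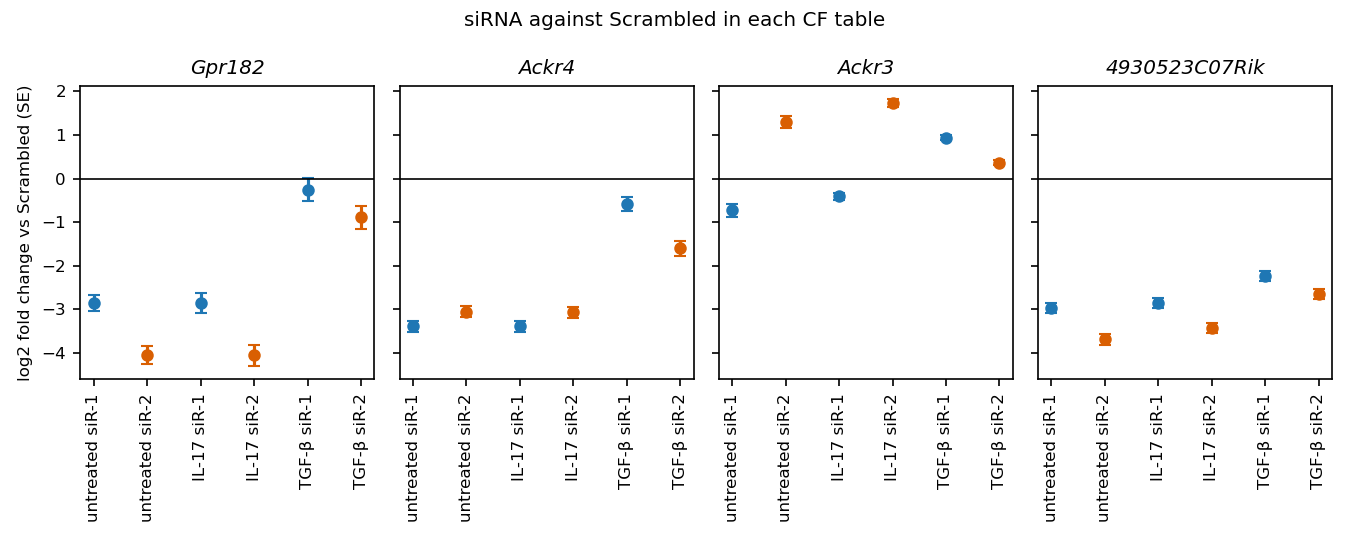
Log2 fold change of each siRNA against Scrambled (vertical axis, points with SE) for Gpr182, Ackr4, Ackr3 and the knocked-down gene 4930523C07Rik, in untreated, IL-17 and TGF-β CFs (horizontal axis; blue siR-1, orange siR-2; 3 libraries per group). Gpr182 and Ackr4 lie between -2.85 and -4.05 in the first 2 tables and nearer 0 in the TGF-β table, where Ackr3 lies above 0 with both siRNAs.

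In the TGF-β table, Ackr3 rose with siR-1 and Ackr4 and Gpr182 fell with siR-2. Tests are given because neither Gpr182 nor Ackr4 was among the 20 largest falls there. Whether the choice of the genes also drew on this table is not known, so these tests may not be independent of it. Ackr3 stood at 19.1, 20.9 and 21.0 CPM with Scrambled, 36.9, 39.5 and 40.0 for siR-1, and 26.1, 26.3 and 25.7 for siR-2. The groups did not overlap, and the order of the siRNAs was opposite to that in the other tables. By edgeR, siR-1 raised it by 0.93 ± 0.06 on the log2 scale (adjusted p = 3.15e-09). For siR-2 the value was 0.36 ± 0.06 (adjusted p = 0.000101), under the threshold of 0.59. Between the siRNAs it was -0.57 ± 0.06 (adjusted p = 1.04e-06), just under the threshold, and -0.61 without siR-1 replicate 1, past it.

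Ackr4 stood at 4.66, 4.13 and 5.02 CPM with Scrambled, 3.33, 3.15 and 2.78 for siR-1, and 1.93, 1.35 and 1.28 for siR-2. It was lowest with siR-2, with no overlap between groups. Its log2 fold change was -1.60 ± 0.17 for siR-2 (adjusted p = 1.05e-06) and -0.57 ± 0.16 for siR-1 (adjusted p = 0.0144), the latter just under the threshold and past it at -0.64, -0.63 and -0.59 when Scrambled replicate 2, siR-1 replicate 1 or siR-1 replicate 2 was left out. Between the siRNAs Ackr4 was lower with siR-2, by -1.02 ± 0.17 (adjusted p = 0.000205).

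Gpr182 stood at 1.02, 1.06 and 1.65 CPM with Scrambled, 1.04, 1.12 and 0.973 for siR-1, and 0.588, 0.558 and 0.863 for siR-2. The siR-1 libraries overlapped Scrambled, and the siR-2 libraries lay below both. Against Scrambled, siR-2 gave -0.89 ± 0.27 in log2 units (adjusted p = 0.0177) and siR-1 -0.25 ± 0.26 (adjusted p = 0.587). The call with siR-2 was lost without Scrambled replicate 3, the highest library (-0.63, adjusted p = 0.131), and without siR-2 replicate 1 or 2 (adjusted p = 0.0687 and 0.0702). Between the siRNAs the value was -0.64 ± 0.27 (adjusted p = 0.102), and -0.86 without siR-2 replicate 3 (adjusted p = 0.0457). In counts, 1 of 5 members passed with siR-1 (4.36% of 19891 genes), 2 with siR-2 (7.51%) and 1 between the siRNAs (3.96%).

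Across the tables, Ackr3 was higher with either stimulus, and Gpr182 and Ackr4 were far lower in the TGF-β table alone. Stimuli were compared in Scrambled CFs in 1 fit of all 27 CF libraries. The table and the stimulus cannot be told apart, and the untreated Scrambled libraries are shared by both comparisons and by the contrast that guided the choice of the genes. Against untreated, Ackr3 rose 2.86-fold with IL-17 (log2 fold change 1.52 ± 0.08, adjusted p = 9.44e-16) and 10.2-fold with TGF-β (3.36 ± 0.08, adjusted p = 8.90e-26). The untreated Scrambled level of Gpr182 and Ackr4 entered their choice, so their values here are a description without p values. With TGF-β, Ackr4 stood lower by 1.85 ± 0.14 on the log2 scale and Gpr182 by 2.55 ± 0.23. With IL-17 neither was past the threshold of 1. Gpr182 was 0.52 ± 0.21 higher and Ackr4 differed by -0.29 ± 0.13, although neither group overlapped its untreated counterpart. Of 22359 genes tested, 1.46% passed with IL-17, where 1 member did, and 20.8% with TGF-β, where 4 did. Of those 4, 2 were Gpr182 and Ackr4, so nothing is read from that count.

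In the knockdown arms the stimulus ratios of mean CPM were of another size. Gpr182 was 5.85-fold lower with TGF-β than untreated in Scrambled CFs, but its ratio of TGF-β to untreated was 1.03 in the siR-1 arm and 1.51 in the siR-2 arm. Ackr4 was 3.61-fold lower in Scrambled CFs, while its ratio was 1.94 in the siR-1 arm and 0.747 in the siR-2 arm. For Ackr3 the ratio was 10.2 in Scrambled CFs, 32.3 in the siR-1 arm and 5.26 in the siR-2 arm. With IL-17 the ratios of the 3 arms were closer, at 1.43, 1.44 and 1.43 for Gpr182, 0.817, 0.820 and 0.812 for Ackr4, and 2.86, 3.59 and 3.86 for Ackr3. These differences between arms were not tested.

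The order of the 9 CF groups by mean CPM differed between the members. Ackr4 was highest in untreated Scrambled CFs (16.6 ± 1.78 CPM, SD, n = 3), then in IL-17 Scrambled (13.6 ± 0.475), TGF-β Scrambled (4.60 ± 0.451) and TGF-β siR-1 (3.09 ± 0.281), each apart from the next, and neighbours among the remaining 5 groups overlapped, from 2.03 down to 1.31 CPM. Gpr182 was highest in IL-17 Scrambled (10.4 ± 1.04), then in untreated Scrambled (7.27 ± 0.165). Below a gap came 4 groups between 1.45 and 1.01 CPM whose neighbours overlapped, including TGF-β Scrambled (1.24 ± 0.352), and then 3 siR-2 groups between 0.670 and 0.444 CPM. Ackr3 ran from 38.8 ± 1.67 CPM in TGF-β siR-1 through 26.1 ± 0.329 in TGF-β siR-2, 20.3 ± 1.08 in TGF-β Scrambled and 19.1 ± 1.61 in IL-17 siR-2, the last pair overlapping, down to 1.20 ± 0.107 in untreated siR-1.

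**Figure D3:**
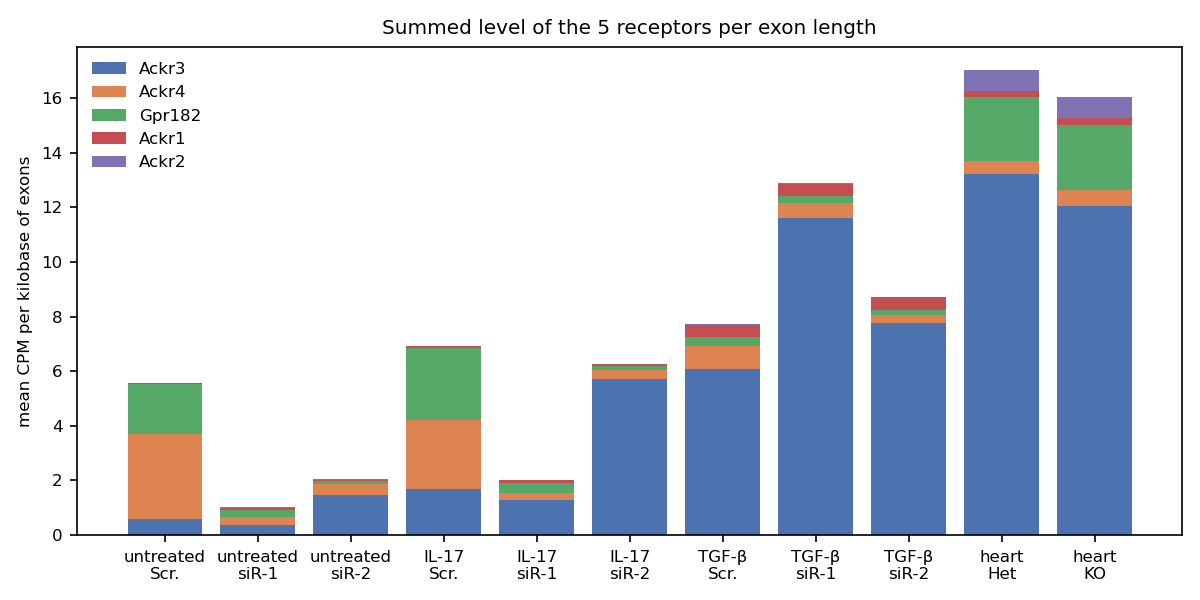
Mean CPM per kilobase of annotated exons of the 5 receptors, stacked, in each CF group (n = 3) and heart group (n = 4); the axis starts at 0 and the bars carry no error. Ackr4 and Gpr182 make up most of the untreated Scrambled bar, and Ackr3 most of the TGF-β and heart bars.

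Levels per exon length, which allow members to be compared with each other, showed a change in which receptor led. In untreated Scrambled CFs, Ackr4 (3.09 ± 0.330 CPM per kilobase) and Gpr182 (1.84 ± 0.042) made up 55.5% and 33.0% of the summed level of the 5 genes, and Ackr3 (0.593 ± 0.030) 10.7%. The sum was 5.57 CPM per kilobase there and 2.04 with siR-2, where Ackr3 made up 72.4% of it, whereas with siR-1 the sum was 1.04 and Ackr3 made up 34.4%. With IL-17, Gpr182 (38.1%) and Ackr4 (36.4%) were close, and Ackr3 made up 24.5%. In TGF-β Scrambled CFs Ackr3 (6.08 ± 0.322 CPM per kilobase) made up 78.6%, Ackr4 11.1% and Gpr182 4.07%. These shares are a description of group means.

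Ackr1, the erythroid and venular receptor, was above the floor in all libraries of the TGF-β table, and of no other CF group. In untreated CFs the 9 libraries held 0 to 21 estimated counts and those given IL-17 held 0 to 25, so no fold change is given there. In the TGF-β table the Scrambled libraries stood at 0.775, 0.531 and 0.626 CPM, siR-1 at 0.741, 0.505 and 0.560, and siR-2 at 0.721, 0.587 and 0.742. The 3 groups overlapped, with log2 fold changes of -0.10 ± 0.29 for siR-1 (adjusted p = 0.879) and 0.09 ± 0.29 for siR-2 (adjusted p = 0.875). Against the floor of untreated Scrambled CFs, TGF-β Scrambled CFs were at least 4.36-fold higher (edgeR's quasi-likelihood adjusted p = 0.00101). Cadm3, which shares exonic bases and the strand with Ackr1, was also higher in that comparison, at 2.90 ± 0.152 against 0.615 ± 0.238 CPM (SD, n = 3; log2 fold change 2.24 ± 0.26, adjusted p = 4.23e-09). The part of shared reads in the Ackr1 value was not tested.

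Ackr2, the scavenger of inflammatory CC chemokines, was at or under the floor in every CF group but untreated siR-1. The untreated siR-1 libraries held 22, 33 and 9 estimated counts, and all others 0 to 17. Ackr2 was left out by the filter on low counts in the IL-17 table. A difference in Ackr2 between CF groups was not detectable at this depth.

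Of the chemokines known to bind ACKR3, ACKR4 or GPR182, with adrenomedullin, 13 were listed and 6 could be tested in untreated CFs, 7 under IL-17 and 10 with TGF-β. With siR-1, 1 of 6 was higher in untreated CFs and 0 lower, 2 of 7 higher and 1 lower under IL-17, and 2 of 10 higher and 0 lower with TGF-β. With siR-2 the counts were 0 higher and 1 lower, 2 and 2, and 1 and 0. The shares of all genes called in these comparisons were 4.76%, 13.5% and 4.36% for siR-1, and for siR-2 10.7%, 21.7% and 7.51%. The median log2 fold change of the list lay between 0.149 and 0.615 in these 6 comparisons, against -0.0201 to 0.0135 over all genes.

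Cxcl12, the main ligand of ACKR3, stood at 247 ± 7.64 CPM (SD, n = 3) in untreated Scrambled CFs. It was higher with siR-1 and lower with siR-2 in untreated CFs (log2 fold change 0.60 ± 0.04 and -0.64 ± 0.04, under the threshold of 1) and was lower with siR-2 than with siR-1 by -1.24 ± 0.04. This is the reverse of the order of Ackr3 in those libraries. Under IL-17 the values of Cxcl12 were 0.70 ± 0.03 with siR-1, past the threshold there, and -0.38 ± 0.03 with siR-2, again the reverse of Ackr3. With TGF-β the order of the 2 siRNAs was the same for both genes, but not their order relative to Scrambled. There siR-2 stood below siR-1 by -0.60 ± 0.04 for Cxcl12 and -0.57 ± 0.06 for Ackr3. Against Scrambled, siR-2 gave -0.53 ± 0.04 for Cxcl12 and 0.36 ± 0.06 for Ackr3, and siR-1 gave 0.08 ± 0.04 and 0.93 ± 0.06. Adm, the adrenomedullin gene, stood at 207 CPM in untreated Scrambled CFs, with log2 fold changes of 0.30 and 0.68 in untreated CFs, and passed with siR-2 under IL-17 (0.80 ± 0.04). Ccl20, which draws CCR6-bearing leukocytes, rose with siR-1 in all 3 tables, with log2 fold changes of 2.78 ± 0.33, 2.89 ± 0.06 and 1.07 ± 0.09. Cxcl10, an interferon-induced chemokine, was lower with siR-2 in untreated CFs (-3.09 ± 0.79) and with both siRNAs under IL-17 (-1.99 ± 0.42 and -2.52 ± 0.44). With TGF-β it lay on the other side of 0, at 0.88 ± 0.38 and 0.93 ± 0.38, and did not pass. Its Scrambled libraries were uneven, at 8.22 ± 5.26 CPM untreated and 37.7 ± 18.3 under IL-17 (SD, n = 3). Of the ACKR4 ligand genes, Ccl25 had group means of 4.51 to 8.38 CPM in CFs, with 5.42 ± 0.534 in untreated Scrambled (SD, n = 3), while Ccl19 and Ccl21a had group means of 0.156 CPM or less.

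**Figure D4:**
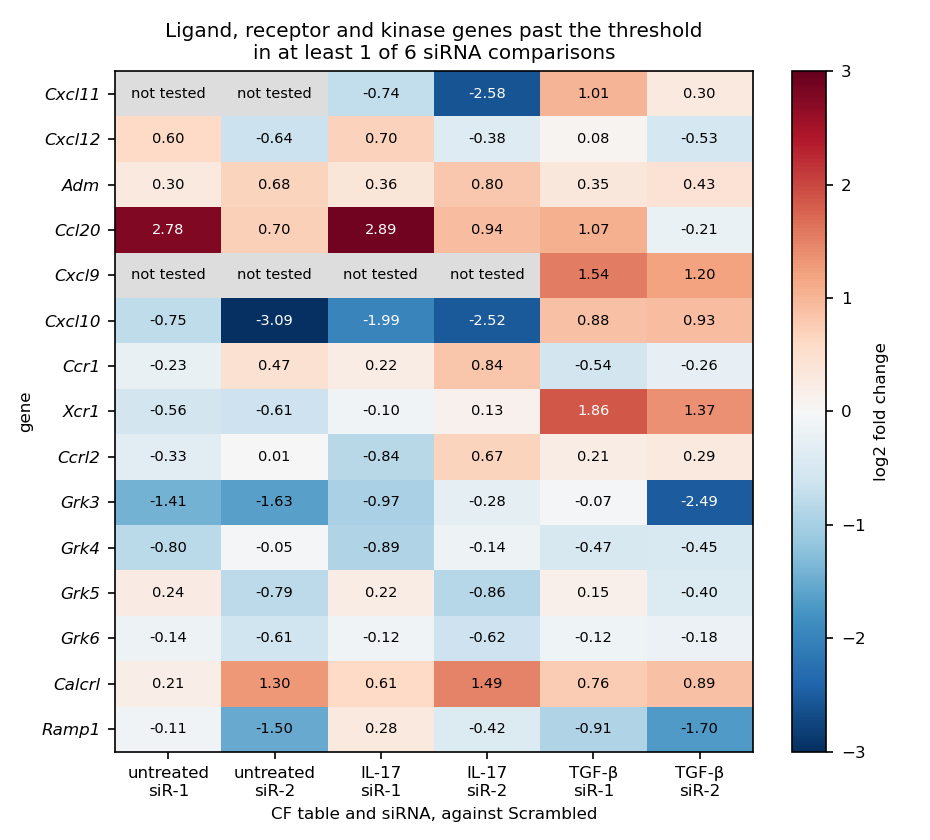
Log2 fold change of each siRNA against Scrambled (colour and number) for the 15 genes of the lists of ACKR3, ACKR4 and GPR182 ligands, conventional chemokine receptors, arrestins and GPCR kinases, and adrenomedullin receptor genes that passed the threshold in at least 1 of 6 siRNA comparisons; rows are genes, columns are the CF table and siRNA, grey cells were not tested. Calcrl is above 0 in all 6 columns, and Cxcl12 and Grk5 are above 0 with siR-1 and below 0 with siR-2 in all 3 tables.

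Of 16 listed genes for inflammatory ligands of ACKR1 and ACKR2, 12 were tested in untreated CFs, 15 under IL-17 and 14 with TGF-β. With siR-1, 6 rose and 1 fell in untreated CFs, 7 and 2 under IL-17, and 7 and 1 with TGF-β. Over all genes, 2.15% were called higher and 2.61% lower with siR-1 in untreated CFs, 5.58% and 7.97% under IL-17, and 2.45% and 1.91% with TGF-β. With siR-2 the counts were 6 and 2, 5 and 4, and 8 and 1, where 3.42% and 7.23%, 8.06% and 13.7%, and 2.07% and 5.44% of all genes were called. The list's median log2 fold change lay between 0.222 and 1.29 in these 6 comparisons. Ccl7 had log2 fold changes of 2.30 ± 0.06 and 2.26 ± 0.06 in untreated CFs, and Ccl17 fell with each siRNA in every table, by 0.80 to 2.03 on the log2 scale. Under IL-17, Cxcl1 passed in opposite directions, at 0.97 ± 0.04 with siR-1 and -0.70 ± 0.04 with siR-2. Ccl11, 1 of the rises with siR-1 in untreated CFs, stood near the floor, at 0.137 ± 0.091 CPM (SD, n = 3) against 0 with Scrambled. In Scrambled CFs, 8 of 15 tested ligand genes rose with IL-17 (1.1% of all genes) and 13 of 15 with TGF-β (11.7%), and none of the 15 passed as lower.

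Conventional chemokine receptors were sparse. Of 19 listed, 10 could be tested in untreated CFs and none passed with either siRNA, by edgeR. Over all genes, 4.76% (siR-1) and 10.7% (siR-2) were called in untreated CFs, 13.5% and 21.7% under IL-17, and 4.36% and 7.51% with TGF-β. With lists this short, no result is read from the counts of calls. Ccrl2 was put on this list although it is a relative of the atypical family, one that presents chemerin. Under IL-17, Ccrl2 fell by 0.84 ± 0.13 with siR-1 and rose by 0.67 ± 0.12 with siR-2 on the log2 scale, and Ccr1 rose with siR-2. In the TGF-β table Xcr1 passed as higher with siR-1, at 0.476 ± 0.107 CPM against 0.130 ± 0.118 with Scrambled (SD, n = 3). That Scrambled level is near the floor. Cxcr4, the signalling receptor for CXCL12, rose with TGF-β in Scrambled CFs, from 0.828 to 5.73 CPM (log2 fold change 2.79 ± 0.19, adjusted p = 2.34e-14), in the same comparison in which Ackr3 rose. Of the 7 arrestin and GPCR kinase genes, Grk4 was lower with siR-1 under IL-17, Grk5 and Grk6 with siR-2 under IL-17, and Grk3 with siR-2 under TGF-β. None of the 7 passed against Scrambled in untreated CFs. Grk5 differed between the siRNAs there, by -1.03 ± 0.03, and Arrb1, which encodes a β-arrestin, fell with TGF-β in Scrambled CFs (-1.59 ± 0.07, adjusted p = 5.07e-20). The other β-arrestin gene, Arrb2, stood at 5.33 CPM in untreated and 9.76 CPM in TGF-β Scrambled CFs (0.87 ± 0.10, adjusted p = 1.36e-09), under the threshold of 1. Among the 5 adrenomedullin receptor genes, of which 4 were tested, Calcrl rose with siR-2 in untreated CFs (1.30 ± 0.06), with both siRNAs under IL-17 (0.61 ± 0.04 and 1.49 ± 0.04) and with both under TGF-β (0.76 ± 0.06 and 0.89 ± 0.06), and Ramp1 fell with siR-2 under TGF-β.

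The 6 fibroblast markers summed to 7838 to 11394 CPM in untreated CFs and 13993 to 16429 CPM in the TGF-β table, most of it from the collagen genes Col1a1 and Col1a2 (3743 and 3482 CPM in untreated Scrambled CFs). In Scrambled CFs with TGF-β, Dcn rose and Pdgfra fell, the latter from 351 to 127 CPM (log2 fold change -1.46 ± 0.04), and Tcf21 differed by -0.65 ± 0.04, under the threshold. In bulk RNA, fewer cells of a type and less RNA per cell cannot be told apart. Since GPR182 and ACKR4 are known from lymphatic and other endothelium, the markers of these cells were followed. The 8 endothelial markers summed to 72.5 to 78.7 CPM in untreated Scrambled CFs, 66.8 to 71.2 under siR-1, 74.4 to 76.97 under siR-2, and 125 to 127 CPM in TGF-β Scrambled CFs. With TGF-β in Scrambled CFs, Emcn, Tie1 and Vwf passed as higher and Kdr as lower. Of all genes, 11.7% passed as higher and 9.14% as lower there. The 5 lymphatic markers summed to 62.8 to 70.1 CPM in untreated Scrambled CFs, 32.3 to 37.1 under siR-1 and 33.3 to 34.4 under siR-2. Most of this sum was Flt4, a VEGF-C receptor gene (56.6, 27.2 and 25.9 CPM), while Ccl21a was at or under the floor in every library and Prox1, the lymphatic lineage regulator, stood at 3.10, 2.73 and 4.03 CPM. Under IL-17 the sum averaged 71.6 CPM with Scrambled, 37.6 for siR-1 and 32.0 for siR-2. Of the 4 lymphatic markers tested there, Flt4, Lyve1 and Prox1 fell with siR-1, and Flt4 and Lyve1 with siR-2. Over all genes under IL-17, 7.97% were called lower with siR-1 and 13.7% with siR-2. Prox1 stood at 3.80, 2.42 and 4.11 CPM and Lyve1, a hyaluronan receptor gene, at 3.78, 1.97 and 2.36. Mural markers summed to 100 to 114 CPM in untreated Scrambled CFs, 63.4 to 69.6 under siR-1 and 51.4 to 64.4 under siR-2. Of these 5 markers, Notch3 alone passed there with either siRNA, as lower, and Kcnj8 was at or under the floor. Under IL-17 Notch3 passed as lower with both siRNAs, while Rgs5 passed as lower with siR-1 and as higher with siR-2. Cardiomyocyte markers, nearly all Tnnt2, summed to 90.2 to 97.9, 42.1 to 47.1 and 27.7 to 32.7 CPM in the same 3 untreated groups. Myh6 was at 0 in all untreated Scrambled libraries. In TGF-β Scrambled CFs the lymphatic markers summed to 46.6 to 49.9 CPM, the mural markers to 60.2 to 61.1 and the cardiomyocyte markers to 5.29 to 5.88. The part of these cell types in the Gpr182 and Ackr4 values was not tested. Erythroid markers stayed at or below 1.54 CPM in sum in CFs, B cell markers at or below 0.370 and macrophage markers between 17.6 and 44.6.

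Genes whose pattern over the 27 CF libraries was most like that of a member were ranked by Pearson correlation of log2 CPM, each table centred on its own mean, among 13311 genes. The libraries share tables and siRNA groups, so these values are a description. For Ackr4 the 5 highest were Wdr35 (r = 0.986), Dglucy, Rpa1, Ptprd and Trp53inp1 (0.974). For Gpr182 they were Bhlhb9 (0.976), Pidd1, Ptn, Hecw2 and Fgl2 (0.974), and Ackr4 came 415th (0.901). For Ackr3 they were Acly (0.983), Gda, Pde10a, Selenbp1 and Ly6a (0.966), with Ackr4 at -0.172 and Gpr182 at -0.482.

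In whole hearts the groups overlapped for each of the 5 members, and 4 of them were above the floor in every heart. Ackr3 was the highest per exon length, at 13.2 ± 0.756 (Het) and 12.1 ± 1.21 (KO) CPM per kilobase (SD, n = 4), or 77.6% and 75.3% of the summed level, followed by Gpr182 at 2.35 ± 0.453 and 2.39 ± 0.268. In Het hearts Ackr3 stood at 45.3, 47.2, 41.4 and 43.1 CPM and in KO hearts at 38.9, 46.3, 39.1 and 37.3. KO differed from Het by -0.13 ± 0.07 in log2 units (edgeR's quasi-likelihood test, adjusted p = 1.0). Gpr182 stood at 9.08, 7.35, 9.03 and 11.7 CPM in the Het group and 8.29, 10.7, 9.89 and 8.88 in the KO group (0.02 ± 0.13). Ackr4 stood at 2.97, 2.74, 1.91 and 2.52 against 3.17, 3.63, 2.91 and 2.63 CPM (0.28 ± 0.15). Ackr2 stood at 1.17, 2.13, 2.42 and 3.602 against 1.95, 2.83, 2.34 and 2.24 CPM (0.00 ± 0.28). Ackr1 held 2 to 13 counts a heart and was not tested.

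None of the 4 members tested passed in hearts, and 0% of all 16675 genes did by edgeR. Without adjustment 601 genes had a p under 0.05, 0 of them members, and DESeq2 called 3 genes, 0 of them members. Gpr182 and Ackr4, so much lower after knockdown in cultured CFs, thus had log2 differences of 0.02 and 0.28 between these hearts. The heart RNA comes from all cell types of the organ, and cardiomyocyte markers summed to 34342 to 37547 CPM in it against 90.2 to 97.9 in untreated Scrambled CFs, so the values of hearts and CFs stand side by side without a test.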

How the data were processed

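RNA-Seq was analysed in 27 CF libraries (9 groups of n = 3) and 8 hearts (n = 4 per genotype). Per the study's methods, the authors trimmed reads with Cutadapt, aligned them to GRCm38 with HISAT2 and quantified gene expression with StringTie. The deposited CF tables hold estimated counts, which the authors gave as whole numbers, and the deposited heart table holds counts. Strand setting and annotation release are not given in the sources used here. Groups were taken from the labels. The untreated and IL-17 columns were matched to siR-1 and siR-2 through codes described for the TGF-β samples, and heart columns show the genotype but not the animal.

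Each table was fitted with edgeR 4.0.16 (R 4.3.3; quasi-likelihood, robust, TMM, filterByExpr), and stimuli in a fit of the 27 CF libraries. Calls needed a Benjamini-Hochberg adjusted p of at most 0.05 over all genes and a log2 difference, up or down, of 1 or more (untreated, stimuli, hearts) or 0.59 or more (IL-17, TGF-β). CPM used TMM library sizes. Named genes were the members, the knocked-down gene, overlapping genes, genes of the lists called in at least 1 siRNA comparison, and the 5 genes most like each member. A few genes outside that rule (Ccl19, Ccl21a, Ccl25, Cxcr4, Arrb1, Arrb2 and the single cell type markers) were named after their values were seen. The members and lists were chosen with earlier results of these data known. Alternatives were DESeq2 1.42.0, no filter, no TMM, the other fold threshold, the replicate number as a block, leaving out each library, and, added after the data were seen, estimated counts divided by 6. The scripts were tested on simulated data. Depth sets the floor of 18 estimated counts per CF library and 3 counts per heart, for counting error only.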

Additional observations from a re-analysis of the deposited data

Results flagged for a closer look

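Ackr3 with siR-1 against Scrambled stood on opposite sides of 0 in different tables. The log2 fold change was -0.73 in untreated CFs and -0.41 under IL-17, where every siR-1 library lay below every Scrambled library, and 0.93 in the TGF-β table, where every siR-1 library lay above every Scrambled library (n = 3 per group). The difference between the tables was not tested. It rests on the siRNA codes of the untreated and IL-17 columns meaning what they mean in the TGF-β table.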

How the results depend on the processing

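Counts of called members stayed within 1.5 times the main count in 157 cases and moved in 11. With the other fold threshold, the count in the TGF-β table went from 1 to 0 with siR-1 and from 2 to 1 with siR-2. Leaving out 1 library at a time gave 2 to 3 called members for siR-1 and 1 to 3 between the siRNAs in untreated CFs, and 1 to 2 in each of the 3 TGF-β comparisons. Ackr2, at the floor, supplied the added call in untreated CFs without Scrambled replicate 1 or siR-2 replicate 1. Signs turned when a library was left out only for values near 0: in the TGF-β table, Ackr1 with siR-1 ranged from -0.27 to 0.06 (0.0631 without Scrambled replicate 1, 0.0137 without siR-1 replicate 2), Gpr182 with siR-1 from -0.37 to 0.00416, and Ackr1 with siR-2 from -0.0324 to 0.24. In hearts Ackr2 ranged from -0.218 to 0.30 (also -0.0363 and -0.100), and Gpr182 from -0.0730 to 0.15 (also -0.0429 and -0.00232).

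Without TMM, mean CPM was 14.1 for Ackr4 in IL-17 Scrambled and 1.25 in IL-17 siR-1, and 7.57 for Gpr182 in untreated Scrambled CFs. Same-numbered libraries had correlations of -0.184 to 0.159, so the numbers do not pair them. The replicate block changed no call of a member (Gpr182 with siR-2 in the TGF-β table -0.89, adjusted p = 0.0191 by edgeR). No paired analysis was possible for hearts because the numbers in their columns could not be matched to the replicate numbers of the labels. With the other threshold, all-gene counts went from 936 to 2374, 2095 to 4156 and 1308 to 3121 (untreated: siR-1, siR-2, siR-2 against siR-1), 2697 to 1158, 4323 to 2249 and 3122 to 1284 (IL-17), 867 to 273, 1494 to 587 and 787 to 230 (TGF-β), 326 to 687 (IL-17 against untreated) and 4658 to 7554 (TGF-β against untreated). In hearts DESeq2 called 3 genes and edgeR 1 without Het replicate 1 or KO replicate 1, 2 or 4. Depth limits Ackr1 and Ackr2 in CFs.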
